A study of Mus musculus with 16 samples.

Results

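The genes described here are 9 transcription factors that mark regions along the digestive tract: Gata4, Gata5, Gata6, Onecut2, Pdx1, Cdx1, Cdx2, Hnf4a and Hnf4g. They were chosen by name, as factors known for their part in the regional identity of the gut, and all 9 are among the 21965 genes of the count table. They were measured by RNA-seq in the terminal ileum of 16 male C57BL/6 mice, each with 1 library of counted reads. The mice were 4 wild-type (WT) and 4 fat-1 mice that were pair-fed the control liquid diet (PF), and 3 WT and 5 fat-1 mice fed the same kind of diet with ethanol (EtOH). The fat-1 mice were heterozygous for a transgene from C. elegans that is active in all tissues and encodes an enzyme that turns n6 into n3 polyunsaturated fatty acids, and the WT mice were their littermates. Mice entered the study at 8 to 10 weeks of age and received Lieber-DeCarli liquid diets for 6 weeks, with ethanol raised in steps to 6% by volume for the last 3 weeks.

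GATA factors are zinc finger proteins that bind GATA motifs. In the small intestine GATA4 is known for its activity in duodenum and jejunum, where it keeps the absorptive programme of the proximal gut and holds back that of the ileum, while GATA6 acts along the whole small intestine and in the colon. PDX1 marks the duodenum next to the pancreas, ONECUT2 is a cut homeodomain factor of the proximal gut and liver, CDX1 and CDX2 give the epithelium its intestinal identity, and the nuclear receptors HNF4A and HNF4G drive enterocyte genes.

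The libraries held 8422645 to 11438539 counted reads, and levels are given as CPM (reads of a gene per 1000000 reads of its library) after scaling with the trimmed mean of M-values (TMM). A library's 3 counts, the limit that a count of 0 allows, were worth 0.246 to 0.421 CPM. Libraries 1 to 8 were of PF and libraries 9 to 16 of EtOH-fed mice, which means that library order and diet cannot be told apart. Markers of the labelled tissue set 4 libraries apart. Summed over 7 ileum genes, among them the bile acid transporter Slc10a2, fat-1 PF mice 2 and 4 had 1103 and 796 CPM and fat-1 EtOH mice 3 and 4 had 994 and 1958 CPM, where the other 12 libraries had 3132 to 9521 CPM. The same fat-1 PF mice had the highest sums of 8 genes of the proximal small intestine, 51816 and 51798 CPM, against 2524 to 15509 CPM in the other PF and 213 to 819 CPM in the EtOH libraries. Sums of 8 large intestine genes were 13347 and 14378 CPM in fat-1 EtOH mice 3 and 4 and 5334 CPM in WT EtOH mouse 2, but 100.4 to 440 CPM elsewhere, where 2 to 5 of the 8 genes were at 0. These 4 libraries go against the ileum label, and WT EtOH mouse 2, with 7853 CPM of ileum genes, carries both sets. Results are therefore given also without these 5 libraries. That leaves all WT PF mice, fat-1 PF mice 1 and 3, WT EtOH mice 1 and 3 and fat-1 EtOH mice 1, 2 and 5. Another library, that of fat-1 EtOH mouse 5, had 486 CPM of 6 B-cell follicle genes against at most 97.9 CPM in the others. Without it the same members were called in each comparison, with 0.0583% of all genes called in WT EtOH against WT PF and 37.2% in fat-1 EtOH against fat-1 PF. In bulk tissue, fewer cells of a type and less RNA per cell cannot be told apart.

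**Figure D1:**
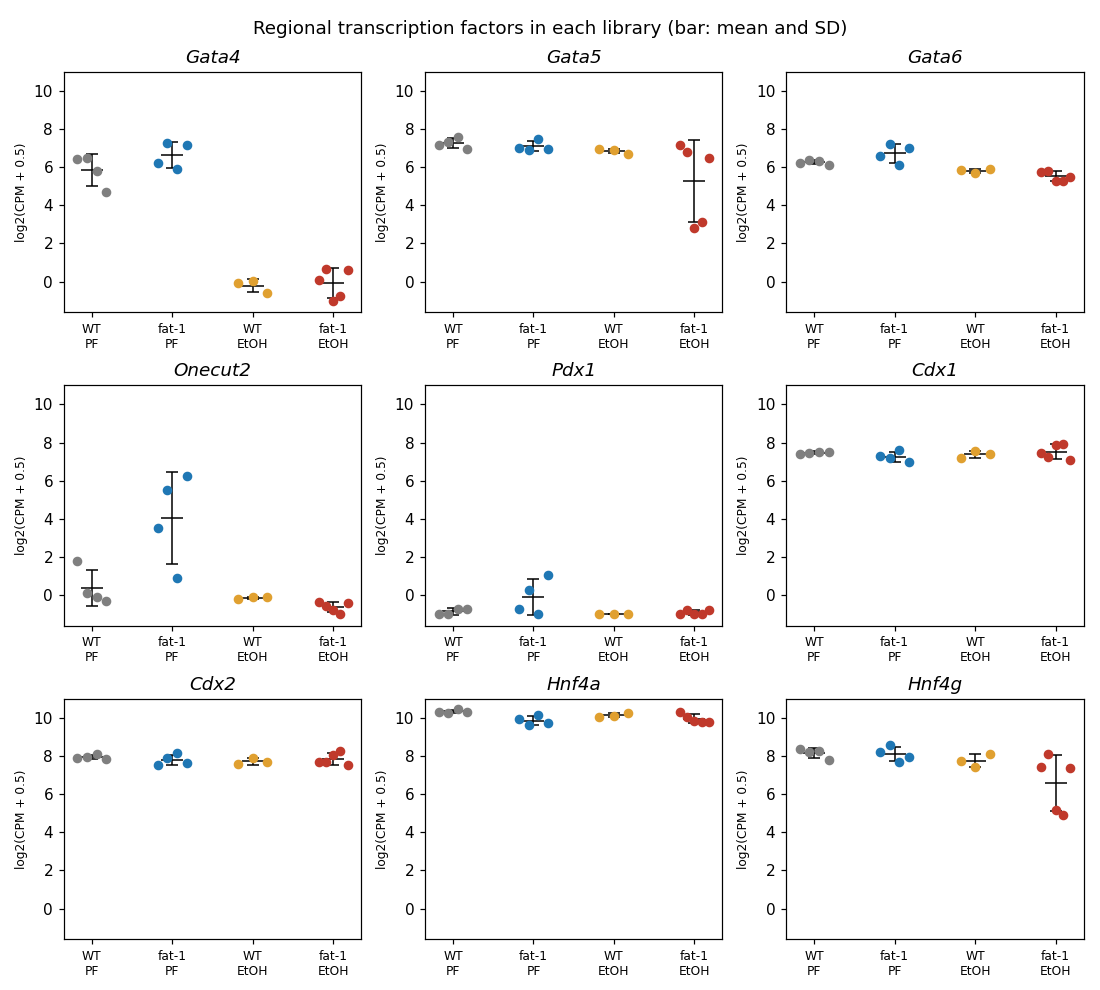
Level of each of the 9 transcription factors in each library, as log2(CPM + 0.5), by group, with 1 point per mouse and the mean and SD of the group as a bar. Gata4 sits high in all 8 PF libraries and near 0 reads in all 8 EtOH libraries, Onecut2 is high in 3 of 4 fat-1 PF libraries, and Gata5 and Hnf4g have 2 low fat-1 EtOH libraries each.

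Per kilobase of exon, Hnf4a stood first in WT PF mice with 269 ± 17.8 CPM per kb (SD, n = 4). Hnf4g followed with 110 ± 17.7, Cdx2 with 109 ± 8.91 and Cdx1 with 101 ± 4.86 CPM per kb, 3 levels that lay within each other's spread. Gata5 had 47.3 ± 8.24, Gata4 16.4 ± 7.60 and Gata6 11.7 ± 0.87 CPM per kb, of which the last 2 did not differ beyond their spread. Onecut2 with 0.066 ± 0.078 and Pdx1 with 0.025 ± 0.029 CPM per kb stood last. In WT PF libraries Onecut2 had 3 to 27 reads and Pdx1 had 0 or 1.

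Gata4, on chromosome 14 (63198922 to 63271692, minus strand, GRCm38; gene ENSMUSG00000021944), fell nearly to the limit of detection in EtOH-fed mice of both genotypes. WT PF mice had 86.9, 87.8, 55.6 and 25.6 CPM and fat-1 PF mice had 75.3, 156, 59.9 and 143 CPM. WT EtOH mice had 0.45, 0.52 and 0.17 CPM and fat-1 EtOH mice had 0.57, 1.11, 0, 0.09 and 1.03 CPM. The lowest PF library thus lay far above the highest EtOH library, and the groups did not overlap in either genotype. In reads, 2318 were counted over the 4 WT PF libraries against 12 over the 3 WT EtOH libraries, which is 172-fold lower for the same depth (95% interval 98.3 to 333, exact and for counting error only). In fat-1 mice 3429 reads in PF stood against 32 in EtOH, 192-fold lower (136 to 281). The log2 fold change was -7.38 (SE 0.80) in WT mice, with an adjusted p of 0.0027 by edgeR's quasi-likelihood test, and -7.57 (SE 0.61) in fat-1 mice, with an adjusted p of 5.93e-05. Ranked by p, Gata4 was number 1 of the 13811 genes tested in both comparisons, and the difference between the genotypes in this change was -0.19 on the log2 scale (95% interval -2.93 to 2.55) and 1.47 without the 5 libraries. The call in WT mice was lost when WT EtOH mouse 1 or 3 was left out, with log2 fold changes of -7.54 and -7.01 and adjusted p of 0.0625 and 0.0626. Without the 5 libraries named above, the log2 fold change was -7.65 in WT mice (adjusted p 0.0105) and -6.18 in fat-1 mice (adjusted p 0.00935, edgeR). The WT value then rests on WT EtOH mice 1 and 3. Sums of the proximal genes in the libraries kept were still 2524 to 15509 CPM in PF and 628 to 819 CPM in EtOH mice.

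Within the PF mice, Gata4 varied by several fold between libraries and stood highest where the proximal genes stood highest. The 2 fat-1 PF libraries with proximal sums of 51816 and 51798 CPM had 156 and 143 CPM of Gata4, and WT PF mouse 4, with the lowest proximal sum of the PF libraries, had the lowest Gata4 of them. By edgeR at an adjusted p of 0.05, 6 of the 8 proximal genes were lower and 1 higher in fat-1 EtOH mice, where 37.4% of all genes were called, and 1 was lower in WT EtOH mice, where 0.0796% were. The part that position along the gut had in the fall of Gata4 was not tested. Smooth muscle genes moved the other way, with sums of 906 to 1434 CPM in PF and 1859 to 4042 CPM in EtOH libraries, and their part was not tested either. Sums of 7 epithelial genes were 9769 to 16673 CPM in EtOH and 12815 to 17479 CPM in PF libraries, and the part of epithelial content was likewise not tested.

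**Figure D2:**
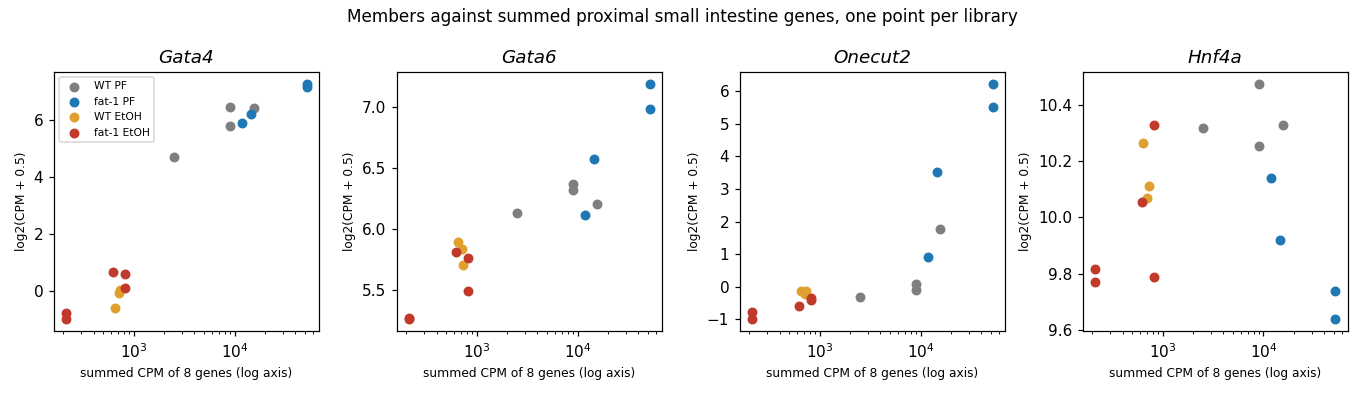
Level of Gata4, Gata6, Onecut2 and Hnf4a as log2(CPM + 0.5) against the summed CPM of 8 proximal small intestine genes on a log axis, with 1 point per library coloured by group. The EtOH libraries lie at 213 to 819 CPM of proximal genes and the PF libraries at 2524 CPM or more, with 2 fat-1 PF libraries at 51798 and 51816 CPM at the right end, where Gata4, Gata6 and Onecut2 are high and Hnf4a is lowest.

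Gata6, on chromosome 18, fell with EtOH in fat-1 mice and in the mean of both genotypes, by much less than Gata4. WT PF mice had 73.4, 81.9, 79.5 and 69.5 CPM and fat-1 PF mice had 95.1, 146, 68.7 and 126 CPM. WT EtOH mice had 56.6, 51.4 and 58.9 CPM and fat-1 EtOH mice had 53.6, 55.6, 37.6, 38 and 44.3 CPM. Every EtOH library lay below every PF library, in each genotype and over both. In fat-1 mice Gata6 fell by 1.25 on the log2 scale (SE 0.18, adjusted p 0.000343), and as the mean of both genotypes it fell by 0.85 (SE 0.14, adjusted p 0.000645, edgeR). In WT mice the value was -0.45 (SE 0.21, 95% interval -0.90 to -0.01), which did not pass the test (adjusted p 0.348). At -0.44 it passed by limma voom (adjusted p 0.0265), which called 20.3% of all genes, and with only these 2 groups in the edgeR fit (adjusted p 0.024), which called 8.32%. Without the 5 libraries the value in fat-1 mice was -0.67 (adjusted p 0.0198). The difference of the change between genotypes was -0.80 (unadjusted p 0.0108, adjusted p 0.595), and -0.28 without the 5 libraries (unadjusted p 0.198, adjusted p 0.995, edgeR).

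Gata5, on chromosome 2 (180325133 to 180334699, minus strand), a GATA factor of gut endoderm, did not pass the test. WT PF mice had 145, 160, 189 and 125 CPM and fat-1 PF mice had 129, 119, 181 and 125 CPM. WT EtOH mice had 121, 120 and 104 CPM, and fat-1 EtOH mice had 142, 112, 6.40, 8.21 and 89.5 CPM. The WT groups did not overlap, though by a narrow gap, while the fat-1 groups overlapped and the low values were those of fat-1 EtOH mice 3 and 4, with the highest large intestine sums. The log2 fold change was -0.43 in WT mice (adjusted p 0.834) and -0.95 in fat-1 mice (adjusted p 0.259, edgeR), with 95% intervals of -2.02 to 1.17 and -2.34 to 0.44. The value in fat-1 mice was -0.25 without the 3 libraries with large intestine genes, -1.10 without the 2 fat-1 PF libraries and -0.42 without all 5 (adjusted p 0.337, 0.36 and 0.204, edgeR).

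Seen as a family, the GATA transcripts changed in make-up. Per exon length, Gata4 made up 21.03% of the Gata4, Gata5 and Gata6 transcripts in WT PF mice (SD 8.01, range 11.8 to 28.6, n = 4) and 31.2% in fat-1 PF mice (SD 10.3, n = 4), but 0.22% in WT EtOH (SD 0.10, n = 3) and 0.40% in fat-1 EtOH mice (SD 0.31, n = 5). Gata5 made up 80.2% in WT EtOH mice (SD 2.23, n = 3). In fat-1 EtOH mice 3 and 4 Gata5 was only 25.2% and 29.9%, and Gata6 was the largest. The log2 ratio of Gata4 to Gata6 within a library, which does not depend on library scaling, changed by -6.88 from PF to EtOH mice, and that of Gata4 to Cdx2 by -7.62 (adjusted p 0.000907 for each in an exact two-sided permutation test within genotype, adjusted over 4 ratios). The unadjusted p of 0.0004535 is the smallest that its 4410 permutations can give.

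**Figure D3:**
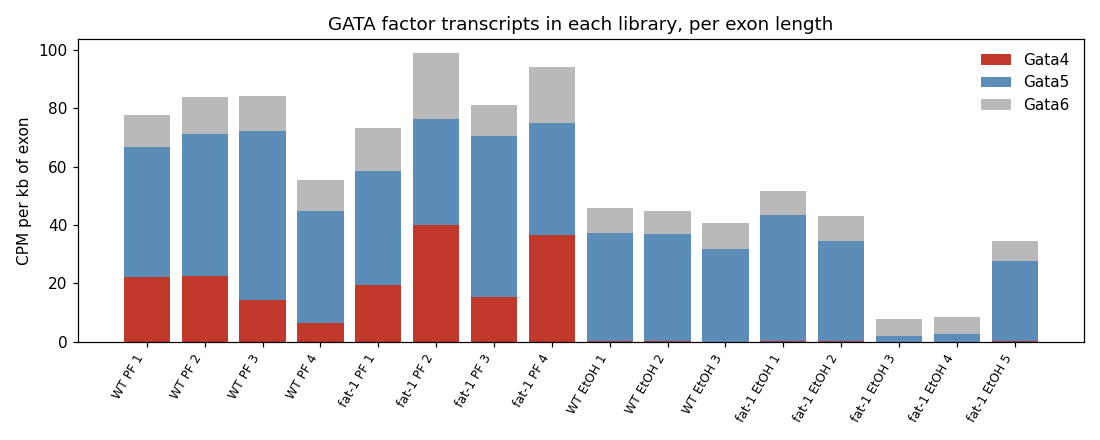
Gata4, Gata5 and Gata6 in each library as stacked CPM per kilobase of exon, with libraries ordered by group. The Gata4 part, 11.8 to 40.5% of the bar in PF libraries, is not visible in the 8 EtOH libraries, and fat-1 EtOH mice 3 and 4 have the lowest bars, at 7.74 and 8.37 CPM per kb.

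Onecut2, on chromosome 18, exceeded 10 CPM in 3 of the 16 libraries, all of them fat-1 PF. The fat-1 PF mice had 10.9, 45.6, 1.37 and 74.7 CPM and the WT PF mice had 2.95, 0.57, 0.44 and 0.31 CPM. WT EtOH mice had 0.36, 0.42 and 0.42 CPM and fat-1 EtOH mice had 0.29, 0.17, 0.08, 0 and 0.26 CPM. The values of 45.6 and 74.7 CPM came from fat-1 PF mice 2 and 4, the libraries with the highest sums of proximal genes, while fat-1 PF mouse 3 lay below WT PF mouse 1. Between diets in fat-1 mice, 1047 reads stood against 9, which is 208-fold lower in EtOH (95% interval 109 to 457, exact and for counting error only), with a log2 fold change of -7.61 (SE 1.08, adjusted p 0.000337, edgeR). Without the 2 fat-1 PF libraries it was -5.19 (adjusted p 0.00788) and without all 5 libraries -4.64 (adjusted p 0.0257). The fat-1 PF side of both fits was mice 1 and 3, with 103 and 10 reads, so that most of its reads came from mouse 1. By limma voom with sample weights it was -6.54 and missed the threshold (adjusted p 0.0845). In WT mice the value was -1.39 (95% interval -4.16 to 1.38, adjusted p 0.657), and -0.12 without WT PF mouse 1 (adjusted p 0.982, edgeR), which held 27 of the 39 reads of its group. The difference between genotypes in the change was -6.22 (unadjusted p 0.00597, adjusted p 0.595). It was -3.81 without the 2 fat-1 PF libraries and -3.23 without all 5 (unadjusted p 0.0155 and 0.0882, adjusted p 0.848 and 0.995, edgeR).

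Between the PF groups, Onecut2 had a log2 fold change of 4.94 in fat-1 against WT mice (SE 0.97, rank 9 of 13811 by p), but its adjusted p of 0.187 missed the threshold. In reads, 1047 stood against 39, 30.7-fold higher (95% interval 22.3 to 43.4 for counting error only). Leaving out 1 library moved the log2 value from 4.15 (without fat-1 PF mouse 4) to 6.19 (without WT PF mouse 1), and without fat-1 PF mice 2 and 4 the log2 value was 2.52 (adjusted p 1, edgeR). Pdx1, on chromosome 5 (147269959 to 147275848, plus strand), was too low for the test. It had 1, 5, 0 and 13 reads in fat-1 PF mice, 0, 0, 1 and 1 in WT PF mice, none in the 3 WT EtOH mice, and 0, 1, 0, 0 and 1 in fat-1 EtOH mice. The 2 libraries with 5 and 13 reads were again fat-1 PF mice 2 and 4, so that 18 of the 19 reads of that group came from them.

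Hnf4a, on chromosome 2 (163506808 to 163572910, plus strand), was the most abundant of the factors, and it was called in none of the comparisons by edgeR. WT PF mice had 1286, 1220, 1422 and 1274 CPM, fat-1 PF mice 969, 796, 1127 and 854 CPM, WT EtOH mice 1075, 1107 and 1230 CPM and fat-1 EtOH mice 1286, 1062, 902, 873 and 883 CPM. Every fat-1 PF mouse lay below every WT PF mouse, with a log2 difference of -0.47 that did not pass the test by edgeR (unadjusted p 0.00694, adjusted p 0.206) and did by DESeq2 (-0.48, adjusted p 0.0449). Without the 2 fat-1 PF libraries it was -0.32 (adjusted p 1, edgeR). EtOH against PF gave -0.19 in WT mice (95% interval -0.54 to 0.16) and 0.10 in fat-1 mice (-0.21 to 0.40), and neither passed the test.

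Hnf4g, on chromosome 3 (3508030 to 3658052, plus strand), the paralogue that shares enterocyte targets with Hnf4a, had a wider spread. WT PF mice had 329, 293, 308 and 222 CPM and fat-1 PF mice had 298, 377, 204 and 247 CPM. WT EtOH mice had 216, 171 and 272 CPM and fat-1 EtOH mice had 169, 270, 34.9, 29.1 and 163 CPM. Fat-1 EtOH mice 3 and 4, with the large intestine genes, were lowest of all 16. The log2 fold change in fat-1 mice was -1.08 (95% interval -2.15 to -0.01, adjusted p 0.103), and -0.45 without the 3 libraries with large intestine genes and -0.31 without all 5 (adjusted p 0.145 and 0.404). Without fat-1 EtOH mouse 2 it was -1.51 and passed the test (adjusted p 0.0259, edgeR). The ratio of Hnf4a to Hnf4g was 0.92 higher on the log2 scale in EtOH mice (0.21 in WT, 1.63 in fat-1 mice, adjusted p 0.0190, exact permutation), but 0.37 without those 3 libraries (adjusted p 0.145).

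Cdx1 and Cdx2, which lie on chromosomes 18 and 5 (Cdx2 at 147300805 to 147307270, minus strand), had similar levels per exon length, and neither passed the test in any of the 6 comparisons. Cdx2 lay between 231 and 275 CPM in WT PF, 185 and 283 in fat-1 PF, 188 and 235 in WT EtOH and 185 and 310 in fat-1 EtOH mice, and all groups overlapped. Cdx1 lay between 165 and 184, 127 and 193, 147 and 189, and 133 and 240 CPM in the same order. The highest Cdx1 values, 237 and 240 CPM, were those of fat-1 EtOH mice 3 and 4. On the log2 scale, EtOH against PF gave -0.23 for Cdx2 in WT (95% interval -0.62 to 0.16) and 0.05 in fat-1 mice (-0.29 to 0.39). For Cdx1 it gave -0.08 (-0.49 to 0.34) and 0.28 (-0.08 to 0.65). The signs of the fat-1 value of Cdx2 and Cdx1 turned without the 5 libraries, to -0.22 and -0.16. Within the pair, Cdx1 made up 48.1% (SD 1.77) of the per-length level in WT PF and 50.8% (SD 2.32) in fat-1 EtOH mice. The log2 ratio of Cdx1 to Cdx2 was 0.18 higher in EtOH mice (adjusted p 0.0188 in the exact permutation test), but 0.16 without the 3 libraries (adjusted p 0.0863) and 0.11 without the 2 fat-1 PF libraries (adjusted p 0.141).

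**Figure D4:**
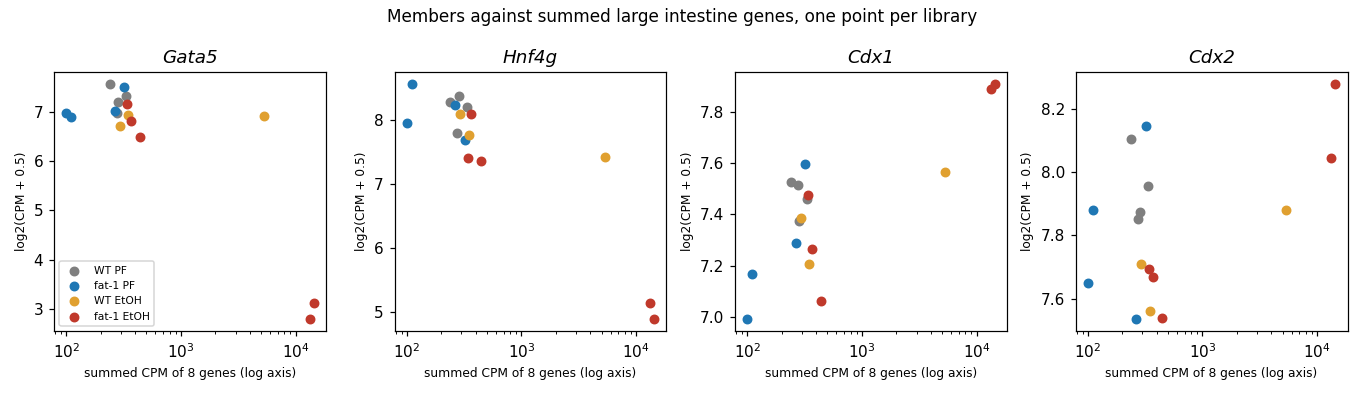
Level of Gata5, Hnf4g, Cdx1 and Cdx2 as log2(CPM + 0.5) against the summed CPM of 8 large intestine genes on a log axis, with 1 point per library coloured by group. The 3 libraries at 5334, 13347 and 14378 CPM lie to the right, and at the 2 rightmost Gata5 and Hnf4g are low while Cdx1 is high.

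Among the 8 members tested, 1 was lower in WT EtOH against WT PF (Gata4), where 0.0796% of all genes were called in either direction and 0.0724% were lower. In fat-1 mice 3 were lower (Gata4, Gata6 and Onecut2), where 37.4% of all genes were called and 18.8% were lower. As the mean of both genotypes the same 3 were lower, with 35.9% of all genes called and 17.6% lower. The 3 of 8 in fat-1 mice are a share close to that of all genes called in either direction. Without the 2 fat-1 PF libraries that stand apart, and without all 5, the same 3 members were called, with 13.9% and 11.9% of all genes called. For Onecut2 the fat-1 PF side of these fits was mice 1 and 3, with 103 and 10 reads. No member was called in fat-1 PF against WT PF, in fat-1 EtOH against WT EtOH or in the interaction, where 0%, 0.00724% and 0% of all genes were called, and 3, 0 and 2 members had an unadjusted p under 0.05, against 12.7%, 4.86% and 8.26% of all genes. By overlap, 3 members of WT mice (Gata4, Gata5 and Gata6) and 3 of fat-1 mice (Gata4, Gata6 and Onecut2) lay lower in every EtOH than in every PF library, against 12.1% and 13.4% of all genes, and Gata4 and Gata6 did so over both genotypes, against 4.66%. Hnf4a was lower in every fat-1 PF than in every WT PF mouse, against 2.62% of genes. Onecut2 was lower in every fat-1 EtOH than in every WT EtOH mouse, against 1.02%, at levels of 5 reads or fewer. The median log2 fold change of the 8 members was -0.41 in WT and -1.01 in fat-1 mice, beside 0.01 and 0.05 over all genes. It was -0.35 in WT and -0.36 in fat-1 mice without the 5 libraries. The comparisons between groups share their libraries: each PF or EtOH group serves in more than 1 of them.

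**Figure D5:**
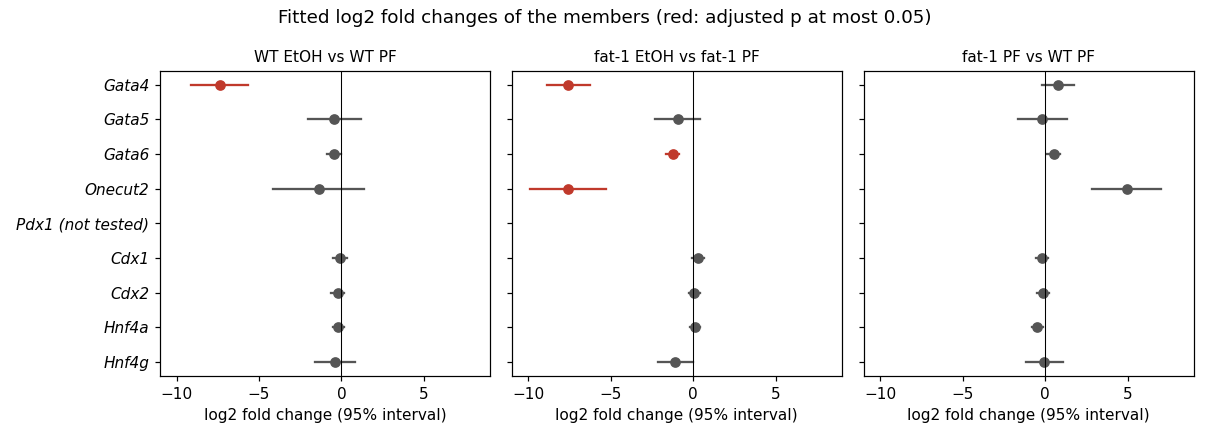
Log2 fold change of the members in 3 comparisons, with its 95% interval as a line and red marking an adjusted p of at most 0.05 by edgeR. Gata4 is near -7.4 in WT and -7.6 in fat-1 mice, Onecut2 near -7.6 in fat-1 mice, and Cdx1, Cdx2 and Hnf4a lie within 0.5 of 0 in all 3 panels.

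Of 24 other gut transcription factors listed, 21 were tested. In fat-1 mice 4 were higher and 3 lower in EtOH, a share close to the 37.4% of all genes called there, and their median was 0.24 beside 0.05 over all genes. None was called in WT mice, where 0.0796% of all genes were. Without the 5 libraries that stand apart, 1 was higher and 3 lower of 20 tested in fat-1 mice, with 11.9% of all genes called, and 1 was higher and 2 lower in WT mice, with 3.41% of all genes called. With all libraries, the lower ones in fat-1 mice were Zfpm1 (-3.31, adjusted p 0.000638), a cofactor of GATA proteins, Creb3l3 (-3.06, adjusted p 0.000202), which controls lipid genes of enterocytes, and Esrra (-1.10, adjusted p 0.000444, edgeR). They were lower without the 5 libraries too, at -1.86, -2.15 and -0.83 (adjusted p 0.0265, 0.0126 and 0.0173). Among the higher ones in fat-1 mice were Foxa1 (1.61), the bile acid receptor gene Nr1h4 (1.16) and Nr5a2 (0.78). Without the 5 libraries these 3 were at 0.46, 0.59 and 0.35 and were not called (adjusted p 0.0869, 0.161 and 0.124, edgeR). Zfpm1 had 10.6 to 30.5 CPM in the WT PF libraries and 19.0 to 91.8 CPM in those of fat-1 PF mice, against 1.61 to 9.92 CPM in the EtOH libraries. Every EtOH library thus lay below every PF library, as for 4.66% of all genes. In WT mice Zfpm1 was at -2.01 (adjusted p 0.197) and without the 5 libraries at -1.81 (adjusted p 0.0554, edgeR), and was not called. Of 12 genes known to depend on CDX2 or HNF4 factors in gut epithelium, 3 were lower in fat-1 EtOH mice, among them Apoc3 (-5.84) and Mttp (-2.82), Muc2 was higher (2.04) and 8 were not called, with a median of -0.63, again beside 37.4% of all genes called. Without the 5 libraries Muc2 was at 0.43 and not called (adjusted p 0.122), Apoc3 was at -3.96 and Mttp at -1.67 (adjusted p 0.0161 and 0.0119, edgeR), and 4 of the 12 were lower and none higher. In WT mice none of the 12 was called with all libraries. With the 5 libraries left out, Muc2 was higher there (0.72, adjusted p 0.0421) and Apoc3 (-3.93), Mttp (-1.28) and Apoa1 (-1.31) were lower, with 3.41% of all genes called.

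The genes whose pattern was most like that of a member were found by the root mean square difference of their centred log2 CPM over the 16 libraries, for the 4 members with an SD above 1. Nearest to Gata4 were Ugt2a3, a glucuronosyltransferase gene, at 0.58, Slc23a1, a vitamin C transporter, at 0.80, and Gimd1 at 0.90. Nearest to Gata5 were the brush border peptidase gene Dpp4 at 0.18 and Susd2 at 0.21. Nearest to Hnf4g were Tspan5 at 0.20 and Apob at 0.23, and nearest to Onecut2 were Bbox1 at 0.68 and Slc6a3 at 0.76.

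Hnf4a has 2 of the listed transcript starts, and their upstream windows are shown because they differ in the letters that ONECUT and GATA factors are known to bind. The windows run from 250 to 31 bases before each start (RefSeq, GRCm38.p6, plus strand), and capitals mark matches to ATCAAT (ONECUT factors) and GATAA (GATA factors), sought on both strands together with TTTAT (CDX factors) and AAGTCCA (HNF4).
Hnf4a, first start, chr2:163506607-163506826: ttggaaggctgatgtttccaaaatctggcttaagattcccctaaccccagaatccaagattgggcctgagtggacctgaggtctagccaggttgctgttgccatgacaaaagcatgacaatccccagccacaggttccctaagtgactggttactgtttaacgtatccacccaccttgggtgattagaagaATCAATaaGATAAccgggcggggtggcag
Hnf4a, second start, chr2:163546905-163547124: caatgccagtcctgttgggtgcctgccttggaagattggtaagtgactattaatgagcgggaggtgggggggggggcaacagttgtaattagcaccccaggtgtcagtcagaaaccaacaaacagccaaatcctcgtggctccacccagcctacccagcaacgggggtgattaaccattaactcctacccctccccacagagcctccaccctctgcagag
The first window held 1 ATCAAT, 59 bases before the start, and 1 GATAA, 51 bases before it, and the second held none of the 4. The start used for the first window lies downstream of the gene start of 163506808 given above, which falls inside that window. Over 32851 windows of the same length, 20.6% held GATAA, 33.5% TTTAT, 6.19% ATCAAT and 2.97% AAGTCCA. The windows of Gata5, Pdx1 and Cdx2 held none of these letters. The counts are per gene and do not separate the Hnf4a starts.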

How the data were processed

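RNA from the ileum was sequenced from stranded poly(A) libraries. The authors aligned reads to mm10 and deposited raw counts of reads per Ensembl gene, not normalized; the settings of the counting, its use of strand among them, are not given in the sources used here. An antisense gene overlaps exons of Gata5 and another those of Gata6, and the table lists neither. The transgene itself was not analysed here. Symbols, exon lengths and positions came from GENCODE M21 (GRCm38), which lacks 26 genes of the table. The tests used edgeR 4.0.16 under R 4.3.3 (TMM, filterByExpr, robust quasi-likelihood fit of 16 libraries with 1 mean per group, 13811 genes tested, Benjamini-Hochberg adjustment at 0.05), after tests on simulated data. Intervals are at 95%. Ratios of members used log2 with 0.5 reads added. No sign was seen that the replicate numbers of the labels pair the mice: 21 pairs with the same number had a mean correlation of -0.0225 and 74 with other numbers 0.00703. Such means cannot exclude a pairing. Alternatives were DESeq2 1.42.0, limma 3.58.1 voom, other scalings, filters, groups in the fit and libraries left out. The 5 libraries that stand apart were picked by marker sums in these same data. For the lists and the median of the members, leaving out libraries was itself chosen after seeing the data. The members are named by the rule of this report, the other genes come from lists or are the 5 nearest to a member, and members and lists were chosen with earlier results of these data known. Some genes of the lists are not reported here. Figures were drawn with matplotlib 3.10.9 under python 3.11.15.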

Additional observations from a re-analysis of the deposited data

How the results depend on the processing

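The precision is limited by 3 to 5 mice per group and, for Gata4, Onecut2 and Pdx1 in EtOH mice, by counts of 0 to 13 reads per library. Among the counts of members called, that in WT EtOH against WT PF was 2 (Gata4 and Gata6) by voom and with only the 2 groups in the fit, which called 20.3% and 8.32% of all genes, and 0 with at least 10 counts in every library, a filter that removes Gata4; leaving out 1 mouse gave 0 to 1. That filter left 1 of 6 members tested called in fat-1 mice and 1 in the mean of both genotypes, with 38.7% and 37.4% of all genes called. In fat-1 PF against WT PF, DESeq2 called 1 member and 189 of the 13811 genes. That is 2.56% of the genes it gave an adjusted p, which 6427 genes lacked. By edgeR, leaving out 1 mouse gave 0 to 1 there (Onecut2, adjusted p 0.0498 without fat-1 PF mouse 1 and 0.0165 without mouse 3, with 0.711% and 0.826% of all genes called). With the replicate block, the calls were 1, 3, 3, 0, 0 and 0, as without it, with 0.13%, 34.4%, 35% and then 0% of all genes called. With at least 1 count in any library as the filter, Pdx1 was tested and 4 members, Pdx1 among them, were called in fat-1 mice, with 27.7% of all genes called and 18 of the 19 fat-1 PF reads of Pdx1 from mice 2 and 4. Voom also lost Onecut2 in the mean of both genotypes (-3.83, adjusted p 0.0849). Upper-quartile scaling moved the median of all genes by 0.15 in fat-1 mice.

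The ratios of Cdx1 to Cdx2 and of Hnf4a to Hnf4g missed the threshold at 0.16 and 0.37 without the 3 libraries with large intestine genes, at 0.11 and 0.76 without the 2 fat-1 PF libraries, and at 0.085 and 0.21 without all 5; the cause was not tested.

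The sign of log2 values that were never called turned as follows. Cdx1: EtOH against PF in fat-1 mice -0.16 without all 5 libraries, mean of both genotypes -0.075 without the 3 and -0.16 without all 5, and fat-1 EtOH against WT EtOH -0.023 and -0.029. Cdx2: in fat-1 mice -0.048 by voom, -0.16 without the 3 and -0.22 without all 5, mean of both genotypes 0.014 with upper-quartile scaling, and fat-1 EtOH against WT EtOH -0.0027 and -0.0092. Hnf4a: in fat-1 mice -0.062 without the 2 libraries, and in the mean of both genotypes 0.049 with upper-quartile scaling, 0.024 by voom and 0.026 without the 3. Gata5: fat-1 EtOH against WT EtOH 0.019 and 0.014, interaction 0.21 and 0.029, without the 3 and all 5. Gata4: interaction 0.81 without the 3, 0.49 without the 2 and 1.47 without all 5.

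Leaving out 1 mouse, the sign turned within these ranges: Cdx1 in WT mice -0.17 to 0.0076, Cdx2 in fat-1 mice -0.059 to 0.19, Hnf4a in fat-1 mice -0.00044 to 0.21 and in the mean of both genotypes -0.093 to 0.011, Hnf4g between the PF groups -0.22 to 0.084, and the interaction of Gata4 -0.60 to 0.14.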
